A study of Mus musculus with 9 samples.

Results

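Among the genes that build and modify the uterine matrix, 10 were examined here: Eln, Fbn1, Fbln1 and Fbln5 of the elastic fibre, the lysyl oxidases Lox, Loxl1 and Loxl2, and the matricellular genes Tnc, Postn and Thbs1. They were taken by gene symbol from the 31274 entries of an FPKM table (fragment counts scaled to the length of a gene's exons and to the size of the library). All 10 had an entry, and all 10 were among the 14728 genes tested, which had a mean above 1 FPKM in at least 1 genotype. The table covered whole uteri of C57BL/6 mice on day 4.5 of pseudopregnancy, the receptive phase, with 1 library from each of 4 Wnk1f/f and 5 Wnk1d/d mice. Both genotypes carried Wnk1 alleles with loxP sites around exon 2, and in Wnk1d/d mice Cre driven by the progesterone receptor gene had removed that exon. Whether the Wnk1f/f mice carried the Cre allele was not given in the sources used here. Cells without the progesterone receptor, such as endothelial and immune cells, kept Wnk1 in this model. The females were virgins of 6 to 10 weeks, and pseudopregnancy was induced with vasectomized males.

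Elastic fibres consist of a core of crosslinked elastin on a scaffold of fibrillin microfibrils, and fibulins help to join the parts. Lysyl oxidases are secreted copper enzymes that oxidize lysine residues of elastin and collagen, which is the first step of their crosslinking. Matricellular proteins such as tenascin C, periostin and thrombospondin 1 lie in the matrix and act mainly on cells and on matrix assembly. In the uterus the elastic and collagen matrix is laid down by smooth muscle cells of the myometrium and the vessels and by stromal fibroblasts, and it is remodelled with the cycle and with pregnancy.

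The targeted gene was lower in each Wnk1d/d library, with Wnk1 at 43.4 to 47.3 FPKM in Wnk1f/f and 29.9 to 33.9 FPKM in Wnk1d/d uteri (limma adjusted p = 0.0017). The median FPKM of the tested genes was alike in the 9 libraries, between 12.9 and 13.1. Fragment counts were not used, so depth is unknown. Some libraries stood apart from the rest. In Wnk1d/d replicate 4 a single entry took 70.3% of the summed FPKM. In Wnk1f/f replicate 4 the summed FPKM of 8 liver markers was 190. That sum was 12.2 to 13.5 in the other Wnk1f/f libraries and 17.3 to 64.9 in the Wnk1d/d libraries. With either Wnk1d/d replicate 4 or Wnk1f/f replicate 4 left out, 4 of the 10 matrix genes were called higher, as with all 9. Defining uterine genes were present, with Pgr at 16.6 FPKM in Wnk1f/f and 17.8 FPKM in Wnk1d/d uteri. The study calls the control mice littermates of the mutants, but nothing in the labels assigns mice to litters or to preparation days. The tests were unpaired, so p-values measure the spread between these 9 mice without accounting for litter.

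Of the 10 genes, 4 were higher in Wnk1d/d uteri: Eln, Loxl1, Loxl2 and Tnc. The ratio of mean FPKM, Wnk1d/d over Wnk1f/f, was 1.91 for Eln, 1.83 for Loxl1, 2.26 for Loxl2 and 2.86 for Tnc. Fbln1 and Postn had higher means without passing the test, Fbln5 and Lox had lower means without passing it, and Fbn1 and Thbs1 had nearly equal means. Genes were tested with limma on log2(FPKM + 1), and the p-values were adjusted over all 14728 genes. The share of all tested genes that passed at an adjusted p under 0.05 was 11.1% higher and 11.0% lower in Wnk1d/d uteri, against 4 of 10 higher and 0 of 10 lower here by limma. At an unadjusted p under 0.05, 6 were higher and 1, Fbln5, was lower. The share of all tested genes at that looser cut is not given here, and the adjusted shares do not stand for it. A ratio of means of at least 1.5 was also required beside the adjusted p. The same 4 genes were then counted, against 5.09% of all tested genes in that direction. The libraries of the genotypes did not overlap, with each Wnk1d/d value above each Wnk1f/f value, for these 4 of the 10 genes and for 9.27% of all tested genes. The median log2 difference of the 10 genes was 0.67, beside 0.003 over all tested genes. In whole tissue, more cells of a type and more RNA per cell cannot be told apart, nor can fewer cells and less RNA per cell.

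**Figure D1:**
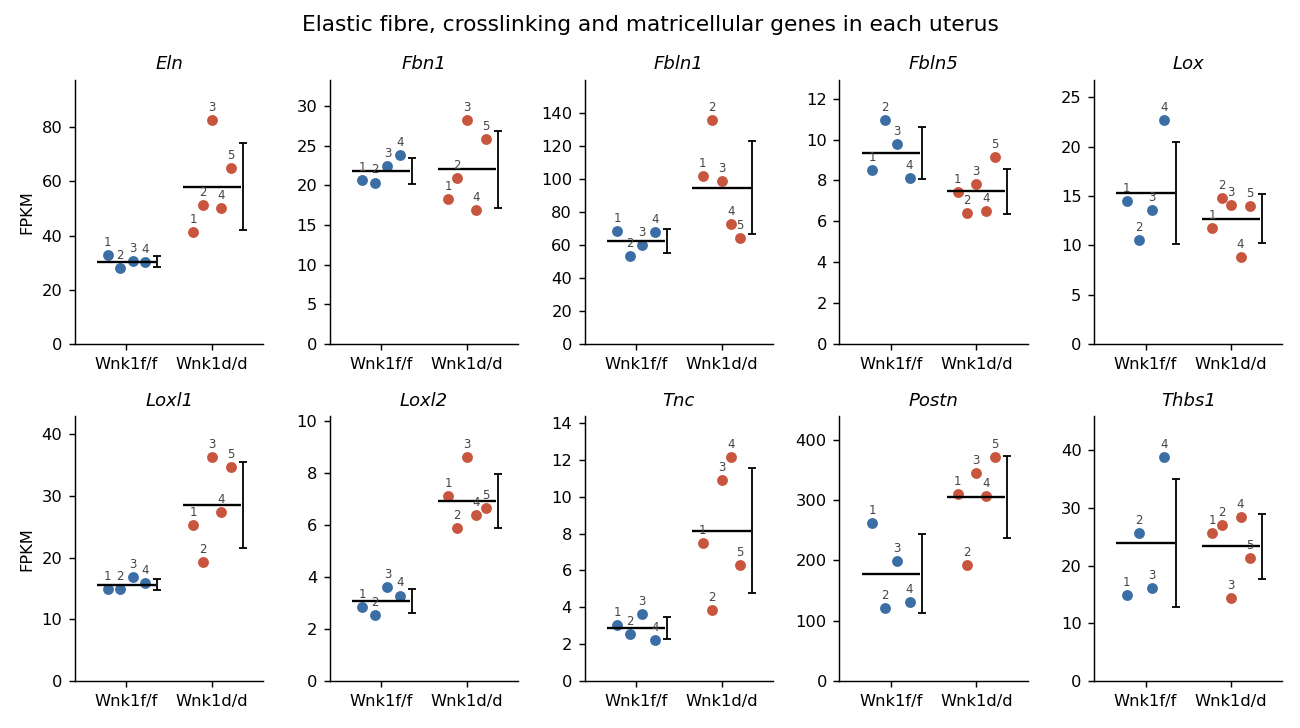
FPKM of the 10 genes in each library, with the axis of each panel starting at 0. Points are single uteri labelled with the replicate number, the horizontal line is the mean and the bar to its right is 1 SD (4 Wnk1f/f and 5 Wnk1d/d libraries). The genotypes do not overlap for Eln, Loxl1, Loxl2 and Tnc, and they overlap for the other 6 genes.

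Elastin, the core protein of the elastic fibre, is encoded by Eln (chr5:134702593-134747323, minus strand, mm10). Its level was 32.8, 28.0, 30.5 and 30.4 FPKM in the 4 Wnk1f/f libraries and 41.5, 51.2, 82.6, 50.2 and 65.1 FPKM in the 5 Wnk1d/d libraries. Each mutant uterus was above each control, and the mutants also spread more widely, with replicate 3 at the top. The mean rose from 30.4 ± 1.99 (SD, n = 4) to 58.1 ± 16.1 FPKM (SD, n = 5). On the log2(FPKM + 1) scale the difference was 0.87 (SE 0.17, 95% interval 0.49 to 1.26, limma adjusted p = 0.010), and an exact two-sided permutation test over the libraries gave p = 0.016. The smallest p that 4 against 5 libraries allow in that test is 0.0079.

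Fbn1 encodes fibrillin 1, the main protein of the microfibril scaffold. It was measured at 20.6, 20.4, 22.5 and 23.8 FPKM in Wnk1f/f and at 18.2, 20.9, 28.2, 16.8 and 25.8 FPKM in Wnk1d/d uteri. The mutants lay on both sides of the controls, with 2 above the highest control and 2 below the lowest. The log2 difference was -0.01 (95% interval -0.34 to 0.31, limma adjusted p = 0.96), an interval that holds changes of either sign. Within a library the ratio of Fbn1 to Eln was 0.629 to 0.783 in Wnk1f/f and 0.335 to 0.439 in Wnk1d/d uteri, without overlap. Fbn1 exons share 2442 bases with the antisense gene Gm9913, and Eln exons share 267 bases with the antisense gene Gm30003 (GENCODE M21). Such shared exon bases with other annotated genes number 308 for Loxl2, 176 for Tnc, 208 for Thbs1 and 30 for Lox. Whether the counting used strand was not given in the sources used here, so reads from these stretches cannot be assigned to 1 gene.

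The fibulins bind elastin and microfibrils, and the mean differences of the 2 measured here had opposite signs, with neither past the test. Fbln1 (chr15:85205949-85286535, plus strand) was at 68.4, 53.6, 59.9 and 67.8 FPKM in Wnk1f/f and at 102, 135, 98.6, 72.9 and 64.1 FPKM in Wnk1d/d libraries. All but the last of the mutants were above the highest control. The mean was 62.4 ± 7.07 FPKM (SD, n = 4) in controls and 94.6 ± 28.0 FPKM (SD, n = 5) in mutants. The log2 difference of 0.55 (SE 0.20, 95% interval 0.10 to 0.99) did not pass, with a limma adjusted p = 0.073 and an exact permutation p = 0.056. Without Wnk1d/d replicate 5 it was 0.67 with a limma adjusted p = 0.038.

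Fbln5, whose product is needed to assemble elastic fibres and brings lysyl oxidase activity to elastin, leaned the other way. Control libraries held 8.49, 10.95, 9.78 and 8.14 FPKM and mutant libraries 7.42, 6.43, 7.84, 6.52 and 9.14 FPKM. In 4 of the 5 mutants the value was below the lowest control, while replicate 5 lay among the controls. The log2 difference of -0.29 (SE 0.12, 95% interval -0.55 to -0.03) did not pass, with a limma adjusted p = 0.096 and an exact permutation p = 0.063. The ratio of Fbln5 to Eln in the same library was 0.259 to 0.392 in Wnk1f/f and 0.0949 to 0.179 in Wnk1d/d uteri, without overlap. The ratio of Fbln1 to Fbln5 was 4.89 to 8.33 in controls and 7.02 to 21.1 in mutants and overlapped.

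**Figure D2:**
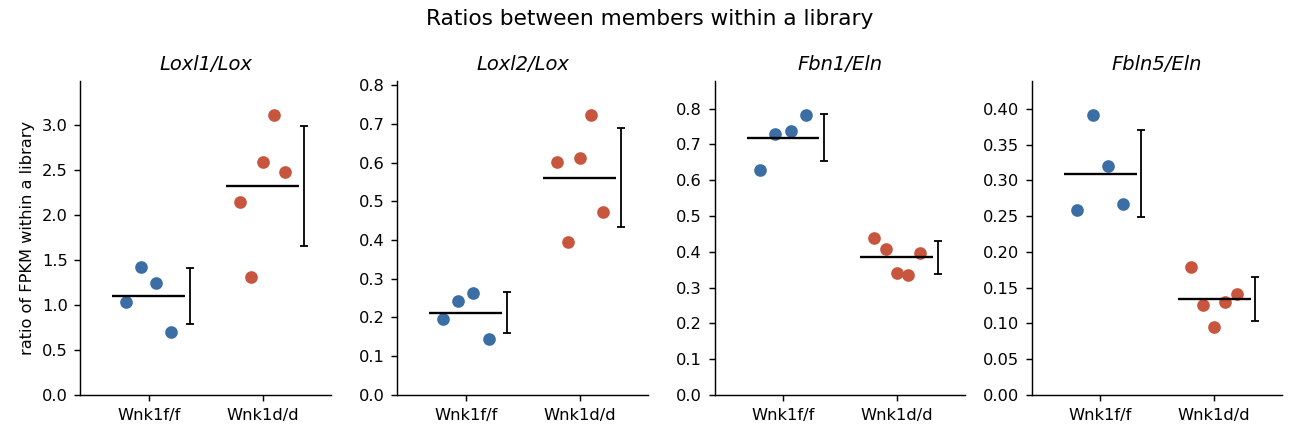
Ratios of FPKM between pairs of the genes within each library, with axes from 0. Points are libraries (4 Wnk1f/f, 5 Wnk1d/d), lines are means and bars are 1 SD. Loxl2/Lox is higher and Fbn1/Eln and Fbln5/Eln are lower in each Wnk1d/d library than in any Wnk1f/f library, and Loxl1/Lox overlaps.

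Lysyl oxidases crosslink elastin and the fibrillar collagens, and of the 3 members Loxl1 and Loxl2 rose while Lox did not pass. Loxl2, which also acts on basement membrane collagen IV, was at 2.84, 2.55, 3.59 and 3.28 FPKM in Wnk1f/f and at 7.09, 5.87, 8.61, 6.36 and 6.63 FPKM in Wnk1d/d libraries (chr14:69609068-69695834, plus strand). The lowest mutant was well above the highest control. The mean rose from 3.07 ± 0.461 (SD, n = 4) to 6.91 ± 1.05 FPKM (SD, n = 5), a log2 difference of 0.96 (SE 0.11, 95% interval 0.70 to 1.22, limma adjusted p = 0.0023). By exact permutation, p was 0.0079, the smallest possible. Loxl2 was the only one of the 10 genes to pass in each of the 19 other fits run (other pseudocounts, filters, scalings and limma settings, a replicate block, and each library left out in turn).

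Loxl1 (chr9:58287738-58313186, minus strand) encodes the family member most closely tied to elastin upkeep, and mice that lack it develop pelvic organ prolapse. In controls it was tightly grouped at 14.9, 14.9, 16.9 and 15.8 FPKM. Mutant libraries held 25.2, 19.4, 36.3, 27.3 and 34.6 FPKM, all above the controls, with replicate 2 nearest to them. The mean rose from 15.6 ± 0.935 (SD, n = 4) to 28.6 ± 6.98 FPKM (SD, n = 5). The log2 difference was 0.80 (SE 0.16, 95% interval 0.43 to 1.16, limma adjusted p = 0.011, exact permutation p = 0.016).

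Lox, the founding member of the family, had a level of 14.5, 10.5, 13.6 and 22.7 FPKM in Wnk1f/f and 11.8, 14.8, 14.1, 8.79 and 14.0 FPKM in Wnk1d/d libraries. Only replicate 4 of the controls, the library with the high liver markers, lay above all mutants. The log2 difference was -0.22 (SE 0.21, 95% interval -0.69 to 0.25, limma adjusted p = 0.46) and became -0.03 without that control. The ratio of Loxl2 to Lox within a library was 0.145 to 0.264 in Wnk1f/f and 0.396 to 0.724 in Wnk1d/d uteri, without overlap. For Loxl1 to Lox it was 0.697 to 1.42 and 1.31 to 3.11, with Wnk1d/d replicate 2 among the controls.

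Tenascin C is a large matricellular glycoprotein of developing and healing tissue that loosens cell adhesion. Its gene Tnc (chr4:63959785-64047015, minus strand) was at 3.03, 2.53, 3.61 and 2.24 FPKM in Wnk1f/f and at 7.51, 3.86, 10.9, 12.2 and 6.30 FPKM in Wnk1d/d libraries. Replicate 2 of the mutants was just above the highest control, and replicates 3 and 4 were far above it. The mean rose from 2.85 ± 0.601 (SD, n = 4) to 8.15 ± 3.39 FPKM (SD, n = 5). The log2 difference of 1.17 (SE 0.27, 95% interval 0.57 to 1.78) was the largest of the 10, with a limma adjusted p = 0.017 and an exact permutation p = 0.016. At these low FPKM the log2(FPKM + 1) scale understates the change, as it does for Loxl2.

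Periostin binds tenascin C and collagen and helps lysyl oxidases to be activated, and its gene Postn (chr3:54361109-54391037, plus strand) was the most abundant of the 10. Wnk1f/f libraries held 263, 121, 199 and 130 FPKM and Wnk1d/d libraries 311, 192, 344, 308 and 372 FPKM. All mutants but replicate 2 exceeded the highest control, which was replicate 1. The mean was 178 ± 66.1 (SD, n = 4) against 305 ± 68.8 FPKM (SD, n = 5). The log2 difference of 0.81 (SE 0.26, 95% interval 0.23 to 1.39) lay next to the threshold and did not pass, with a limma adjusted p = 0.051 and an exact permutation p = 0.048. It passed in 6 of the 19 other fits, among them those without Wnk1f/f replicate 1 (adjusted p = 0.026) and without Wnk1d/d replicate 2 (adjusted p = 0.017).

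Thbs1 encodes thrombospondin 1, which restrains vessel growth, activates latent TGF-beta and is also stored in platelets. It varied more among controls than between genotypes, at 15.0, 25.6, 16.1 and 38.9 FPKM in Wnk1f/f and 25.6, 27.0, 14.5, 28.4 and 21.3 FPKM in Wnk1d/d libraries. The log2 difference was 0.03 (95% interval -0.61 to 0.68, limma adjusted p = 0.94), and it was 0.30 without Wnk1f/f replicate 4, which had the highest value. Platelet markers were low, with a summed FPKM of 8.84 to 12.6 in controls and 14.6 to 22.3 in mutants over 5 genes. Of these Pf4 rose (mean 6.88 FPKM in controls, 13.0 FPKM in mutants), Itga2b did not pass, and Ppbp, Gp9 and Gp1ba were under the filter, with Ppbp listed at 0 in 5 of the 9 libraries. Their part in the Thbs1 values was not tested. Ratios to Postn within a library overlapped between genotypes both for Thbs1 (0.0570 to 0.298 in controls, 0.0420 to 0.141 in mutants) and for Tnc (0.0115 to 0.0209 in controls, 0.0169 to 0.0396 in mutants).

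**Figure D3:**
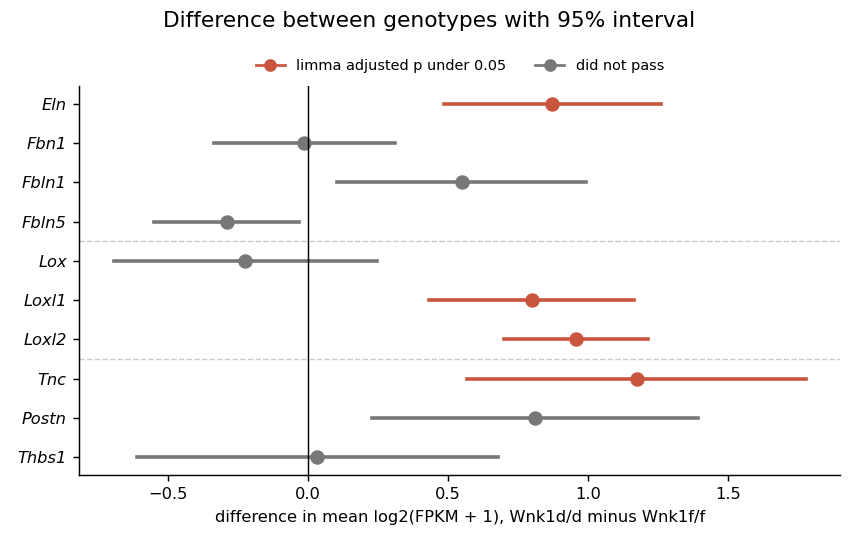
Difference in mean log2(FPKM + 1), Wnk1d/d minus Wnk1f/f, with its 95% interval from limma, for the elastic fibre, lysyl oxidase and matricellular genes from top to bottom (4 and 5 libraries). Red marks an adjusted p under 0.05, and the intervals of Fbln1 and Postn also lie above 0 although their adjusted p-values were 0.073 and 0.051.

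Promoter windows show what the start sites of these genes share in sequence. RefSeq windows on GRCm38.p6 ran from 250 bases before to 50 bases after an annotated start. They are described for 5 of the 10 genes, with 9 windows in all (Fbn1, Fbln1, Fbln5, Tnc and Postn). No windows of Eln, Lox, Loxl1, Loxl2 and Thbs1 are given here, so the motif counts do not cover these genes. The motifs were chosen after the windows had been looked at, and each was searched on both strands. A TATATAA stretch, shown in capitals, was found in 1 window of Tnc and 1 window of Postn, where its first base on the gene's strand lay 29 and 28 bases before the annotated start. These are the windows at chr4:64046887-64047186 (minus strand) and chr3:54360857-54361156 (plus strand), printed 5′ to 3′.
Tnc: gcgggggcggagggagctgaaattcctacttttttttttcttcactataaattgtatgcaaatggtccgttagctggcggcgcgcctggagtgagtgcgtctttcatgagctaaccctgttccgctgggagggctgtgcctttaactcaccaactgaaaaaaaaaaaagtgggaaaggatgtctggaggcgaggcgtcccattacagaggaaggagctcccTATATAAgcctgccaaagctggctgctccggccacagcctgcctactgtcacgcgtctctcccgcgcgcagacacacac
Postn: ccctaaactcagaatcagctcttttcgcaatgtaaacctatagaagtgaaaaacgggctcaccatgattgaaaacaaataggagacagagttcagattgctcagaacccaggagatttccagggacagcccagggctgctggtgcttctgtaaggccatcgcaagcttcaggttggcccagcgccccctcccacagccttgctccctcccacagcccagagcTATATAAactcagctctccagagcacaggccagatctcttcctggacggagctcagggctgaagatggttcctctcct

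Of all 32851 windows in the table, 3.24% held TATATAA. The E-box CACGTG, found in 7.15% of all windows, was in both Fbln1 windows, which overlap each other. None of these matches overlapped a match of another motif. The AP-1 motif TGANTCA (7.81% of all windows) and the CArG box bound by serum response factor (1.63%) were in none of the 9 windows. A match is a description of these letters only, and Tnc passed the test where Postn did not.

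Levels were ordered by mean FPKM, which is scaled per length, and several neighbours in that order changed places between libraries. Postn was the highest in each library and took 38.0 to 59.3% of the summed FPKM of the 10 genes in Wnk1f/f and 40.2 to 60.1% in Wnk1d/d uteri. In controls Fbln1, Eln, Thbs1, Fbn1, Loxl1, Lox, Fbln5, Loxl2 and Tnc followed. Neighbours that were not in the same order in each control library were Eln and Thbs1 (3 of 4), Thbs1 and Fbn1 (2 of 4), Loxl1 and Lox (3 of 4), Lox and Fbln5 (3 of 4), and Loxl2 and Tnc (2 of 4). In mutants the order of the means was Postn, Fbln1, Eln, Loxl1, Thbs1, Fbn1, Lox, Tnc, Fbln5 and Loxl2. Postn was above Fbln1, Eln above Loxl1 and Fbn1 above Lox in 5 of 5 mutant libraries, while the other neighbours changed places in at least 1 library. By the means, Loxl1 stood between Fbn1 and Lox in controls and next to Eln in mutants, where it was above Thbs1 in 2 of 5 libraries. The mean of Tnc moved from rank 10 to rank 8. Loxl2 was above Tnc in 2 of 4 control libraries, and Tnc was above Fbln5 in 3 of 5 mutant libraries.

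Mutant uteri differed among themselves. Wnk1d/d replicate 2 had the lowest mutant value for 5 of the 10 genes, among them Loxl1, Loxl2, Tnc and Postn, but the highest for Fbln1 and Lox. Wnk1d/d replicate 3 had the highest value for 4 genes, Eln, Fbn1, Loxl1 and Loxl2, and the lowest for Thbs1. Among controls, replicate 2 was lowest for 6 genes. The summed FPKM of the 10 genes was 290 to 443 in Wnk1f/f and 477 to 646 in Wnk1d/d uteri, and Postn made up most of that gap.

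Markers of the cell types that make this matrix moved as well. All 10 smooth muscle markers were higher in Wnk1d/d uteri, among them the contractile genes Acta2, Actg2 and Myh11. Mean FPKM in Wnk1f/f and Wnk1d/d uteri was 1117 and 2451 for Acta2, 619 and 2378 for Actg2, and 488 and 814 for Myh11. Their summed FPKM was 3038 to 6806 in Wnk1f/f and 7623 to 14300 in Wnk1d/d uteri. The lowest mutant was replicate 2 and the highest was replicate 4. Without Wnk1f/f replicate 2 or replicate 4, 6 of the 10 passed. Within the controls the sum was highest in replicate 1 at 6806, where Eln, Loxl1, Loxl2 and Tnc were 32.8, 14.9, 2.84 and 3.03 FPKM. It was lowest in control replicate 4 at 3038, where they were 30.4, 15.8, 3.28 and 2.24 FPKM. In control replicates 1 and 4, Postn was at 263 and 130 FPKM, Lox at 14.5 and 22.7, and Thbs1 at 15.0 and 38.9. There Fbln1 was at 68.4 and 67.8 FPKM, Fbn1 at 20.6 and 23.8, and Fbln5 at 8.49 and 8.14. The part of smooth muscle in the values of the 10 genes was not tested.

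Stromal fibroblast markers split in direction. Of 10, Lum, Col1a1, Col1a2 and Col3a1 were higher, Pdgfra, Pdgfrb, Hand2, Vim and Thy1 were lower, and Dcn did not pass. Those that rose encode matrix proteins, as with Col1a1, a chain of the collagen I that lysyl oxidases crosslink, with a mean of 319 FPKM in controls and 619 FPKM in mutants. The fallen ones encode receptors, a transcription factor, a cytoskeletal protein and a surface protein, with Pdgfra at 65.5 FPKM in controls and 37.7 FPKM in mutants. The summed FPKM of the list was 2916 to 3512 in Wnk1f/f and 3299 to 4096 in Wnk1d/d uteri. Endothelial markers were lower for 7 of 8, with Tie1 not passing, and their sum was 494 to 550 FPKM in controls and 205 to 405 FPKM in mutants. That count was 4 without Wnk1f/f replicate 1, 2 or 4 or Wnk1d/d replicate 3. Of 7 immune markers tested, 0 passed by limma, and 0 had an unadjusted p under 0.05, with sums of 191 to 358 and 205 to 250 FPKM. Mesothelial markers were low and their sum was 8.30 to 29.1 and 22.1 to 77.3 FPKM, with 1 of 4, Lrrn4, higher. That count was 0 without Wnk1f/f replicate 2, 3 or 4 or Wnk1d/d replicate 3 or 5, and 2 without Wnk1d/d replicate 2 or 4. None of these lists was used to adjust the matrix genes, and their part in the differences was not tested.

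**Figure D4:**
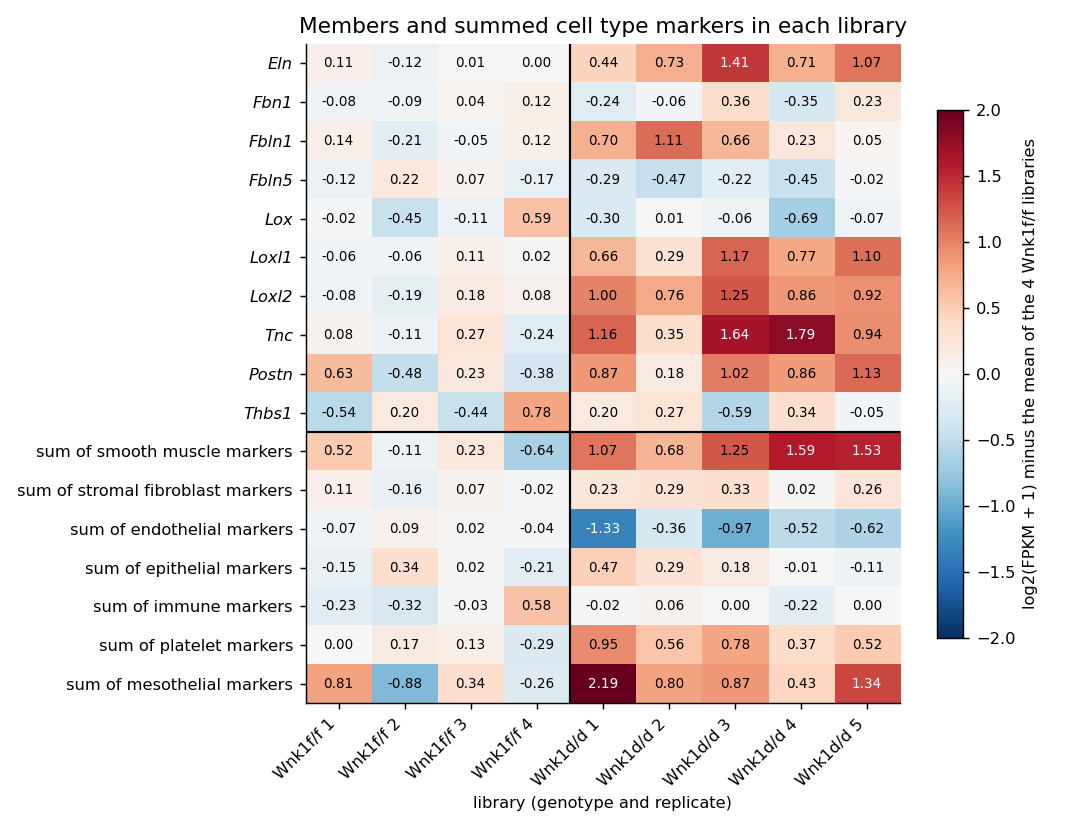
Difference of each library from the mean of the 4 Wnk1f/f libraries in log2(FPKM + 1), for the 10 genes (top) and for the summed FPKM of 7 marker lists (bottom), with the value written in each cell. Wnk1d/d replicate 2 has the smallest mutant values for Loxl1, Loxl2, Tnc and Postn and for the smooth muscle sum, 0.29, 0.76, 0.35, 0.18 and 0.68. The smallest mutant value for Eln is in replicate 1 (0.44). The largest is in replicate 4 for the smooth muscle sum (1.59) and Tnc (1.79), and in replicate 5 for Postn (1.13). For Eln, Loxl1 and Loxl2 it is in replicate 3 (1.41, 1.17 and 1.25).

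Other components of elastic fibres mostly did not pass. Of 12 genes listed, 11 were tested, 1 rose, 1 fell and 9 did not pass, with a median log2 difference of -0.04. Fbn2, the fibrillin of developing tissue, rose from 3.11 ± 0.713 (SD, n = 4) to 6.22 ± 1.45 FPKM (SD, n = 5), with a limma adjusted p = 0.010. Efemp1, which encodes fibulin 3, fell from 83.4 ± 3.63 to 56.1 ± 11.3 FPKM (limma adjusted p = 0.017). Both passed in each fit that left out 1 library. The microfibril genes Mfap2, Mfap4 and Mfap5 and the latent TGF-beta binding protein gene Ltbp4 were among those that did not pass, as was Emilin1 (mean 54.9 and 71.6 FPKM, limma adjusted p = 0.058). The count of higher genes was 2 without Wnk1f/f replicate 1 or Wnk1d/d replicate 1, and that of lower genes was 2 without Wnk1f/f replicate 3.

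Crosslinking enzymes outside the 3 lysyl oxidases above gave 2 higher, 1 lower and 4 that did not pass among 7 tested of 8 listed. Tgm2, the transglutaminase that links glutamine to lysine residues, rose from 303 ± 8.21 (SD, n = 4) to 486 ± 39.1 FPKM (SD, n = 5), with a limma adjusted p = 0.0021. Plod2, the lysyl hydroxylase of collagen telopeptides, rose from 21.6 to 28.5 FPKM (adjusted p = 0.032) and passed in 4 of the 9 fits that left out 1 library, losing its call without Wnk1f/f replicate 2 or 4 or Wnk1d/d replicate 3, 4 or 5. The lysyl oxidase Loxl3 fell from 8.31 to 6.69 FPKM (adjusted p = 0.023) and lost its call without Wnk1f/f replicate 1 or 4. Loxl4 was below the filter. Atp7a, the copper transporter that supplies lysyl oxidases, had 4.16 FPKM in controls and 3.58 FPKM in mutants and did not pass, nor did Plod1, Plod3 and Bmp1.

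Other matricellular genes moved in both directions. Of 19 listed, 14 were tested, 4 rose, 2 fell and 8 did not pass, with a median log2 difference of 0.20. Sparc, a collagen-binding glycoprotein, rose from 942 ± 157 (SD, n = 4) to 1438 ± 86.4 FPKM (SD, n = 5), with a limma adjusted p = 0.011. Its relative Sparcl1 fell from 543 ± 57.2 to 388 ± 43.1 FPKM (limma adjusted p = 0.016). Spp1, which encodes osteopontin, rose from 22.6 ± 5.50 to 69.1 ± 39.1 FPKM (limma adjusted p = 0.030) and was not called without Wnk1f/f replicate 2, 3 or 4 or Wnk1d/d replicate 3. The thrombospondins Thbs3 (mean 21.4 and 25.7 FPKM, adjusted p = 0.025) and Thbs4 (mean 0.438 and 1.39 FPKM, adjusted p = 0.011) rose, Thbs2 did not pass, and Comp was below the filter. Tnxb, the tenascin X gene, fell from 51.3 to 34.0 FPKM (adjusted p = 0.048), while Tnn and Tnr were near 0 and not tested. Sparc, Sparcl1 and Thbs4 passed in each fit without 1 library. Thbs3 was not called without Wnk1f/f replicate 2 or 4 or Wnk1d/d replicate 3 or 5, and Tnxb was called only without Wnk1f/f replicate 3 or Wnk1d/d replicate 2. The count of higher genes was 2 without Wnk1f/f replicate 2 or 4 or Wnk1d/d replicate 3. Among the 6 CCN family genes Ccn1, Ccn2, Ccn3 and Ccn4 were tested and did not pass.

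Receptors through which these proteins act on cells gave 6 higher, 0 lower and 5 that did not pass of 11, with a median log2 difference of 0.36. At an unadjusted p under 0.05, 7 were higher and 1, Cd36, was lower, with no share of all tested genes given here for that cut. Itga5, the alpha subunit of the fibronectin receptor, rose from 53.8 ± 14.9 (SD, n = 4) to 134.5 ± 36.6 FPKM (SD, n = 5), with a limma adjusted p = 0.0078. Itga9, a subunit of a tenascin C and osteopontin receptor, rose from 5.05 ± 0.348 to 8.42 ± 1.66 FPKM (limma adjusted p = 0.014). Itgb3, the beta subunit of a receptor for periostin and osteopontin, rose from 21.9 ± 0.757 to 29.7 ± 2.31 FPKM (limma adjusted p = 0.0057). These 3 passed in each fit without 1 library. Itgav, Itgb1 and Sdc1 also passed, with ratios of 1.27, 1.35 and 1.31, but in 3, 3 and 4 of the 9 fits without 1 library. The count was 3 without Wnk1f/f replicate 2 or Wnk1d/d replicate 1 or 3. The thrombospondin 1 receptors Cd36 (7.46 and 4.81 FPKM, adjusted p = 0.050) and Cd47 did not pass.

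Enzymes that degrade elastin passed in both directions. Of 9 listed, 8 had an entry and 6 were tested, with 1 higher, 2 lower and 3 that did not pass, and a median log2 difference of -0.35. By limma without adjustment, 1 was higher and 4 were lower at p under 0.05, again with no share of all tested genes given for that cut. Mmp2, a gelatinase that also cuts elastin, fell from 212 ± 32.0 (SD, n = 4) to 149.5 ± 15.7 FPKM (SD, n = 5), with a limma adjusted p = 0.018, and passed in each fit without 1 library. Cathepsin genes were near the threshold, with Ctsk at 40.0 and 46.4 FPKM (adjusted p = 0.043) and Ctsl at 168 and 136.5 FPKM (adjusted p = 0.048). Ctsk was called only without Wnk1f/f replicate 1 or Wnk1d/d replicate 2, and Ctsl only without Wnk1f/f replicate 3 or Wnk1d/d replicate 2. Mmp7 spread widely and did not pass (52.6 ± 50.4 FPKM in controls, 9.06 ± 8.37 FPKM in mutants, limma adjusted p = 0.11). The elastases of macrophages and neutrophils, Mmp12 and Elane, were at or near 0 in both genotypes and not tested.

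**Figure D5:**
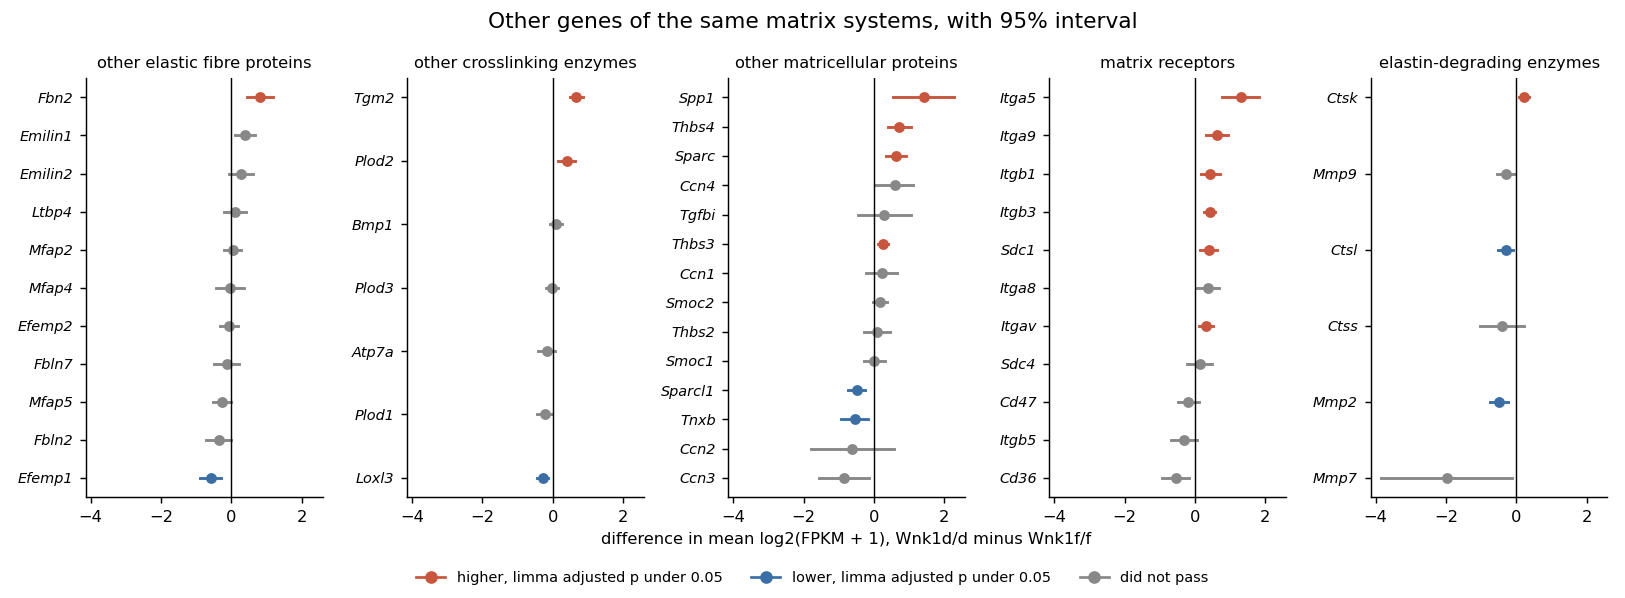
Difference in mean log2(FPKM + 1), Wnk1d/d minus Wnk1f/f, with its 95% interval for the tested genes of 5 wider lists (4 and 5 libraries). Red and blue mark genes with an adjusted p under 0.05 that were higher or lower, and 6 of 11 receptors are red with 0 blue, while the elastic fibre list has 1 of each.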

How the data were processed

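RNA from whole uteri was sequenced as paired-end libraries. Per the submitters' notes the authors aligned reads to mm10 with TopHat2 2.0.4 and computed FPKM with Cufflinks 2.0.2, and the FPKM table they deposited was used without further scaling. The annotation and strand setting are not given in the sources used here. FPKM corrects for length and library size but keeps no counts, so depth is unknown and low values are less precise.

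Genotypes came from the sample labels. With pseudocount 1, log2(FPKM + 1) was compared by limma 3.58.1 in R 4.3.3 (lmFit, eBayes with trend, unpaired, Benjamini-Hochberg over 14728 genes), since Cuffdiff needs reads. The limma step was tested on simulated data. Single genes were also compared by exact two-sided permutation tests (SciPy 1.17.1, NumPy 2.4.6, Python 3.11.15). Coordinates and exon overlaps came from GENCODE M21 on mm10, matched by symbol. CCN family genes and Adgre1 were matched by older symbols.

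All 10 genes are named in full, and from the other lists every gene past the threshold could be named, others by count or with values. The genes and lists were chosen with earlier results of these data known. Alternatives were pseudocounts 0.1 and 0.01, a filter at 5 FPKM or none, scaling to equal medians or quantiles, limma with library weights, with robust estimation or without its trend, a replicate block, a fold criterion of 2, and each library left out.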

Additional observations from a re-analysis of the deposited data

How the results depend on the processing

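Over 19 other fits, Loxl2 was called higher in 19 and Eln, Loxl1 and Tnc in 18. The number of the 10 genes called higher was 4 to 5 when 1 library was left out, and so was the number with a ratio of means of at least 1.5, while 0 were called lower. A fold criterion of 2 left 2 genes, Loxl2 and Tnc. Fbn1 and Thbs1, which did not pass in any fit, changed sign: Fbn1 had a log2 difference of 0.0868 with library weights and -0.10 to 0.0733 when 1 library was left out, and Thbs1 -0.15 to 0.30. Median scaling moved the median log2 difference of the 10 genes to 0.68 and quantile normalization to 0.55, and that over all genes by under 0.1. Among the wider lists, counts moved by over 1.5 times as follows. Elastin-degrading genes called lower numbered 2, and 1 without a filter, with median scaling or with robust estimation, and the 1 called higher was lost with quantile normalization or without trend. Matricellular genes called lower numbered 2, and 1 without a filter, with quantile normalization or without trend. With library weights, 2 further elastic fibre genes were higher in place of 1. With pseudocount 0.1 or 0.01 or robust estimation, 1 receptor gene, Cd36, was called lower in place of 0. Mesothelial markers called higher numbered 2 in place of 1 with either pseudocount, quantile normalization or library weights and 0 without a filter, and the 1 epithelial call was lost without a filter, with quantile normalization or with library weights.

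Replicate numbers in the titles belong to different mice. Deviations of same-numbered libraries from their genotype means correlated at -0.09, -0.003, 0.02 and -0.27, and no Wnk1f/f library correlated best with its own number. With the replicate block, which leaves Wnk1d/d replicate 5 without a partner and so without weight, 1 of the 10 genes was called higher (Loxl2, limma adjusted p = 0.043), also with the fold criterion, while Eln, Loxl1 and Tnc had limma adjusted p = 0.072, 0.060 and 0.066. Their log2 differences under the block were 0.82, 0.72 and 1.23, against 0.87, 0.80 and 1.17 without it. The unblocked fit without Wnk1d/d replicate 5 gave these same differences, with limma adjusted p = 0.026, 0.026 and 0.030. The cause of the higher p-values under the block was not tested. Of the genes called in the wider matrix lists, the block left 0. It also took the smooth muscle markers called higher from 10 to 0, the endothelial markers called lower from 7 to 0, the stromal markers from 4 higher and 5 lower to 1 and 1, the uterine identity genes called lower from 3 to 0, and the mesothelial and epithelial calls from 1 to 0, and left the 1 platelet call.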

Other observations

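Genes that mark uterine identity were lower or did not pass. Hoxa10, a homeobox gene of the receptive endometrium, fell from 231 ± 17.0 (SD, n = 4) to 158 ± 17.1 FPKM (SD, n = 5), with a limma adjusted p = 0.0062. Hoxa11 fell from 221 ± 14.2 to 148 ± 18.4 FPKM (limma adjusted p = 0.0065), and both passed in each fit that left out 1 library. The stromal factor Hand2 fell from 87.2 to 59.1 FPKM (limma adjusted p = 0.029) and was called in 4 of those 9 fits, not without Wnk1f/f replicate 1, 2 or 4 or Wnk1d/d replicate 3 or 5. Pgr, Esr1 and the gland factor Foxa2 did not pass, with Foxa2 at 5.83 and 6.78 FPKM. Of 8 epithelial markers 1, Krt7, was higher (104 to 193 FPKM, limma adjusted p = 0.042), and 7 did not pass. Krt7 was called in 3 of the 9 fits without 1 library, and lost its call without Wnk1f/f replicate 1, 2 or 3 or Wnk1d/d replicate 1, 2 or 3.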
